A study of Homo sapiens with 32 samples.

Results

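The effect of retinoic acid (RA) alone on H3K27ac deposition was examined in SK-N-BE(2)C cells, an established human neuroblastoma line with MYCN amplification and 1p loss, by setting 4 H3K27ac chromatin immunoprecipitation (ChIP) libraries from RA-treated cells against 4 from cells in the vehicle DMSO. These 8 libraries were chosen from the 32 samples of the series by the group in their titles, which the treatment characteristic also gives, and both groups were harvested at day 5. A separate treatment protocol entry names palbociclib for every sample, DMSO and RA libraries included, and so conflicts with this grouping. The other groups, not compared here, received the CDK4/6 inhibitor palbociclib (PB) alone or with RA, and each ChIP library had an input library as its reference. All libraries came from this single line, and the study's methods describe the replicates as different passages in independent experiments. The comparison was described over the 92108 regions of the authors' table, which were built from peaks seen in 2 or more replicates of any treatment and so include 7339 (7.97%) with no peak in any RA or DMSO library. A region was called a start-site region if it lay within 3 kb of the transcription start site of a protein-coding gene (19893 regions, 1.95% of them without a peak in the 8 libraries) and distal otherwise (72199 regions, 9.63% without), with 16 regions on sequences outside the reference left unclassified.

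RA is the active derivative of vitamin A and the ligand of the RA receptors RARα, RARβ and RARγ, which bind DNA as heterodimers with the retinoid X receptors (RXRs). Without ligand the pair recruits corepressors, and with ligand it recruits coactivators that bring histone acetyltransferases, whose products include H3K27ac, a mark of active promoters and enhancers. Textbook direct targets are the genes that remove or bind RA itself, so that cells exposed to RA raise their own capacity to clear it. RA is given to children with neuroblastoma as a differentiating agent. The adrenergic (ADRN) neuroblastoma state is held by a core regulatory circuit (CRC) of transcription factors such as HAND1, HAND2 and GATA3 that occupy their own enhancers.

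The RAR and RXR pair is known to recognise a direct repeat of a hexamer, most typically with 5 bases between the copies (DR5). To show what these elements look like, the matches to DR5 at 4 start-site regions of retinoid genes that rose, and at 1 distal region among the largest upward differences, are given with 6 bases on either side, read 5′ to 3′ on the stated strand of GRCh37 (hg19), with the repeat and its spacer in capitals.
RARB, plus strand: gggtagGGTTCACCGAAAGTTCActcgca
CYP26A1, minus strand: acaattAGTTCACCCAAAGTTCAtcttta
DHRS3, minus strand: gctccgGGTTCAGCCACAGGTCAgcggcg
RARA, plus strand: caggcgAGTTCAGCGAGAGTTCAgccgca
AHR, minus strand: aactcaGGTTCAGATGTAGTTCAggcaaa
The RARB repeat spans chr3:25469701-25469717, at -45 from an annotated start site and within an annotated exon of the gene. The CYP26A1 repeat spans chr10:94833560-94833576, at -82 from a start site, and the region holds 2 further DR5 repeats, at chr10:94831674-94831690 and chr10:94830279-94830295. The DHRS3 repeat spans chr1:12655995-12656011, 318 bases into the gene in an exon, the RARA repeat spans chr17:38497905-38497921, 273 bases after a start site, and the AHR repeat spans chr7:17200264-17200280 in an intron. Each copy was searched as either AGGTCA or AGTTCA, or as either GGGTCA or GGTTCA, on both strands, over the whole region for named genes, so that a wide region had more chances of a match.

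Each region had 3 measures. The authors' mean concentration of a group is the log2 of its normalised read count, and the difference, RA minus DMSO, has no replicate spread because only group means were used. A difference beyond 1 in size, that is 2-fold, was counted as changed. The mean enrichment of a library is the authors' fold enrichment over input of its peaks, averaged over the bases of the region, with 1 given to bases under no peak. Its log2 was tested with limma, 4 libraries against 4, at 77894 regions that had peaks in 2 or more libraries of either group, and a region is said below to have risen or fallen only where its Benjamini-Hochberg adjusted p was under 0.05. Where a group had no peak at all, the fitted effect depends on the assigned value of 1 and is no bound. Occupancy is the number of libraries with a peak in the region. These measures come from the same libraries and are not independent of each other, and read depth was not given in the sources used here. A low adjusted p tends to go with groups that do not overlap. Lack of overlap at a region that rose or fell is therefore a description and no separate support.

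The labels were checked first on the libraries themselves. Peak numbers ranged from 64516 to 92359 in DMSO and from 87210 to 104392 in RA, and the lowest, DMSO replicate 3, stood apart from the other DMSO libraries. Replicates 1 and 2 of both groups also deviated from their group means in the opposite direction to replicates 3 and 4. The test was therefore repeated without DMSO replicate 3 and within each set of replicates, as given beside the counts below. The adrenergic markers GATA3, HAND2, ISL1, TH and DBH had a peak at their start site in all 8 libraries. Of short lists of genes of cells the culture should not hold, 8 of 10 immune, 4 of 8 endothelial and 7 of 8 epithelial genes had regions assigned. Regions were assigned to 16159 of the 19807 protein-coding genes with an annotated start site. In the short lists, 4 of 23 immune regions were above a difference of 1 and 1 below -1, against 1 and 4 of 29 endothelial and 1 and 2 of 34 epithelial regions, and 12.3% and 6.37% of all regions assigned to a gene. The part of such cells in the results was not tested.

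H3K27ac deposition was higher with RA at more regions than it was lower, and this was mostly distal. Of all 92108 regions, 13425 (14.6%) had a difference above 1 and 6671 (7.24%) one below -1, and by limma 7168 rose (9.20% of those tested) and 4164 fell (5.35%). Among distal regions 12317 (17.1%) had a difference above 1 and 6016 (8.33%) a difference below -1, with a median of 0.07. Among start-site regions 1106 (5.56%) were above 1 and 653 (3.28%) below -1, with a median of -0.14. The order at start sites turned at a threshold of 0.5, with 2767 regions higher and 3115 lower, and among start-site regions with a peak in all 8 libraries, with 240 above 1 and 358 below -1. By limma 6169 distal regions rose (10.5% of 58834 tested) and 3365 fell (5.72%), and 999 start-site regions rose (5.25% of 19045 tested) and 798 fell (4.19%). The direction of the difference was the same as that of the fitted effect at 11331 of the 11332 regions called. Without DMSO replicate 3, 5591 distal regions rose and 3739 fell, while 1275 start-site regions rose and 895 fell. Start-site falls numbered 454 without RA replicate 1 and 493 without RA replicate 2. Replicates 1 and 2 alone gave 11828 and 8037 distal calls, and replicates 3 and 4 alone gave 6841 and 3353. The excess of higher over lower regions depended on the scaling: of all regions called, 63.3% rose, but 51.1% with quantile normalisation between libraries.

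The share of changed regions grew with distance from start sites. Of the 15031 regions overlapping a start site, 3.91% had a difference above 1 and 2.65% one below -1. These shares were 10.7% and 5.22% at 1 to 3000 bases, 13.8% and 7.15% between 10 and 30 kb, and 22.7% and 10.4% beyond 100 kb. Thus both directions were more frequent far from genes. Concentration moved with distance in part. Median DMSO concentration was 8.40 at overlapped start sites, 4.56 at 1 to 3000 bases and 4.78 beyond 100 kb. With 4 classes of mean concentration, 12.2% of start-site regions were above 1 in the lowest class and 1.37% in the highest. Below -1 these shares were 4.04% and 2.37%. Distal regions gave 21.7% and 13.5% above 1, and 8.54% and 10.4% below -1. The part of concentration in these shares was not tested. GC content moved with the difference as well. Among distal regions under 40% GC, 32.7% were above 1 and 5.02% below -1, whereas at 55 to 60% GC 2.67% were above and 9.36% below. Start-site regions under 40% GC were above 1 in 26.0% of cases. The part of base composition in these differences was not tested. With differences centred by class of GC content (10 classes), the share of higher among changed regions was 56.8%, against 66.8% without centring.

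**Figure D1:**
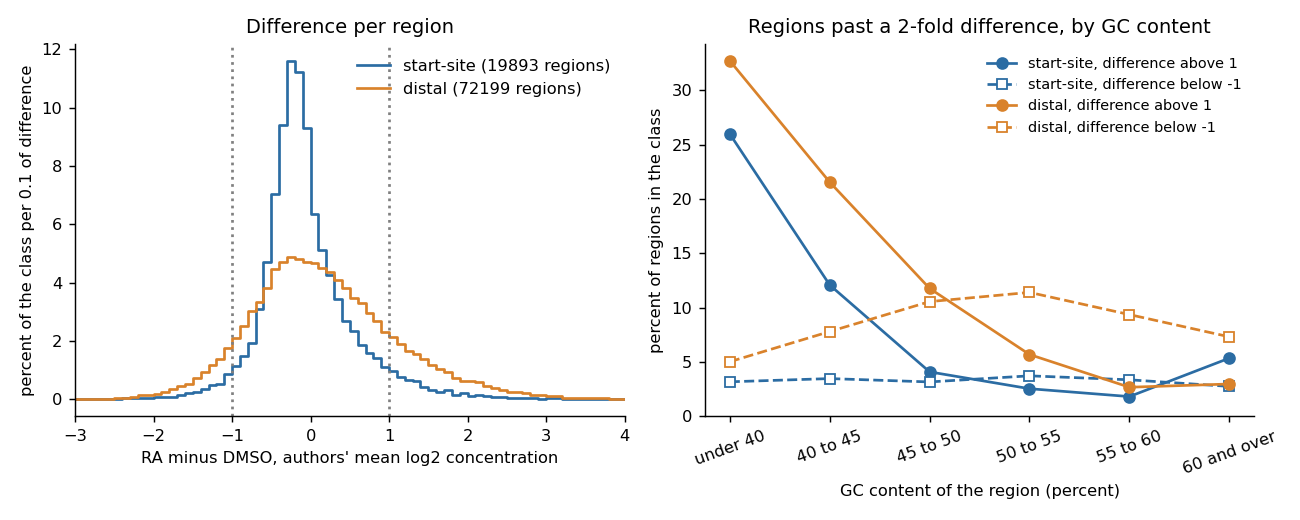
Left, distribution of the difference RA minus DMSO of the authors' mean log2 concentrations, as percent of the 19893 start-site (blue) or 72199 distal (orange) regions per bin of 0.1, with dotted lines at -1 and 1. Right, percent of regions above 1 (filled circles, solid) or below -1 (open squares, dashed) by GC content; the upward share is highest below 40% GC in both classes, at 32.7% of distal and 26.0% of start-site regions.

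At the level of whole libraries the groups could not be separated. Start-site peaks numbered 21071, 20879, 17961 and 20830 in DMSO and 21378, 22899, 22578 and 20885 in RA, which overlap (20185 ± 1486 against 21935 ± 958, SD, n = 4, two-sided exact permutation p = 0.0571, adjusted over 8 measures 0.366). The ratio of the median enrichment of start-site peaks to that of distal peaks was 2.22 ± 0.590 in DMSO and 1.76 ± 0.207 in RA (SD, n = 4, exact permutation p = 0.200, adjusted 0.366). The smallest p that 4 against 4 allows is 0.0286. The unequal split of changed regions between start-site and distal classes is therefore a count over regions, not a tested difference between libraries. The authors' normalisation also hides any shift of H3K27ac over the genome as a whole.

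Genes of RA clearance were among those with the largest rises. CYP26A1 encodes the hydroxylase that degrades RA, and its start-site region (chr10:94827561-94840735, which also covers CYP26C1) had no peak in any DMSO library, whereas mean enrichment was 6.88, 6.33, 6.48 and 8.02 in the RA libraries. The authors' mean concentration was 5.55 with DMSO and 10.15 with RA, a difference of 4.60, and the fitted effect was 2.84 ± 0.21 (log2, SE, adjusted p = 1.6e-07). DHRS3 encodes a reductase that returns retinaldehyde to retinol. Its region (chr1:12650127-12670237) had enrichments of 1.04, 1.16, 1.16 and 1.14 with DMSO and 10.7, 10.5, 7.45 and 8.40 with RA, a difference of 4.33 and an effect of 3.08 ± 0.21 (adjusted p = 5.9e-08). At both genes the groups were separated by several-fold and no library lay between them. CYP26B1, a second RA hydroxylase, had a difference of 2.88 but low RA enrichments of 1.00, 1.10, 1.38 and 1.46 over its 8183 bases, and its adjusted p was 0.249.

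The genes that bind or carry retinoids started from a measurable level. CRABP1, a cytosolic RA-binding protein, had enrichments of 1.94, 2.55, 1.83 and 3.84 with DMSO and 6.33, 6.62, 6.14 and 6.21 with RA (difference 1.42, effect 1.44 ± 0.21, adjusted p = 0.00011). CRABP2, which delivers RA to the nuclear receptors, lay at 5.77, 7.72, 4.58 and 7.82 with DMSO and 16.3, 16.5, 13.1 and 15.6 with RA (difference 1.16, effect 1.34 ± 0.17, adjusted p = 3.8e-05). Its region is 42420 bases wide and also covers ISG20L2 and METTL25B. In both the RA libraries lay above every DMSO library. RDH11, a retinal reductase, did not pass the test, at 12.3 to 13.8 with DMSO and 11.98 to 12.5 with RA (difference -0.07, adjusted p = 0.888). Nor did STRA6, the membrane receptor for retinol-binding protein, at 8.98 to 17.8 and 10.3 to 15.2 (difference -0.20, adjusted p = 0.658). ALDH1A3, which makes RA, did not pass at its start site (difference -0.07, adjusted p = 0.720). Of its 12 regions, with a median of -0.14, 1 was above 1, a distal region 56935 bases away that rose (difference 1.66, adjusted p = 0.00027). The related gene ALDH1A2 differed: 12 of its 19 regions were above 1 and 2 below -1, with a median of 1.37. These compare with 12.3% and 6.37% of all assigned regions, and by limma 6 regions of ALDH1A2 rose and 1 fell.

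Among the receptors, RARB rose the most. RARβ is both a receptor and a classical direct target of RA. Its start-site region (chr3:25465370-25477765) had enrichments of 1.13, 1.22, 1.68 and 1.59 with DMSO and 5.93, 5.47, 6.72 and 6.997 with RA, with concentrations of 7.15 and 10.22, a difference of 3.07 and an effect of 2.23 ± 0.22 (adjusted p = 2.6e-06). RARG lay at 5.01, 6.83, 4.25 and 5.90 with DMSO and 12.6, 13.0, 8.88 and 10.1 with RA (difference 0.89, adjusted p = 0.00046). RARA, whose region also covers CDC6, lay at 8.37, 11.6, 7.72 and 9.14 against 17.1, 18.7, 12.5 and 13.8 (difference 0.63, adjusted p = 0.0030). All 3 RAR genes rose without overlap of the groups, although RARG and RARA stayed within 2-fold by concentration. RXRA pointed the other way: its start-site region lay at 3.02 to 4.99 with DMSO and 2.60 to 3.04 with RA and did not pass the test (difference -0.98, adjusted p = 0.109), and a distal region 42477 bases from the start site fell (difference -1.27, adjusted p = 0.0081).

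The retino-sympathetic CRC is the set of factors named in neuroblastoma under RA (RARA, RARB, SOX4 and MEIS1). The start-site region of SOX4 rose by a small amount, from 10.6, 13.7, 10.2 and 11.4 to 20.4, 20.7, 14.7 and 15.4 (difference 0.36, effect 0.68 ± 0.17, adjusted p = 0.0074). Over its 15 regions SOX4 changed more, with 8 above 1, 1 below -1 and a median of 1.12, and by limma 6 rose and 0 fell. MEIS1, a homeobox cofactor, did not pass the test, with DMSO libraries at 9.06, 11.5, 14.6 and 12.4 and RA libraries at 11.97, 13.1, 10.9 and 12.7 (difference 0.05, adjusted p = 0.679). Over the regions assigned to these 4 genes, 17 of 40 (42.5%) had a difference above 1 and 1 (2.5%) had one below -1. Of the 17, 9 belonged to RARB, 8 to SOX4 and 0 to RARA or MEIS1. The shares over all assigned regions were 12.3% and 6.37%. The set was taken up with earlier results of these samples known, so that its counts are not independent evidence of its direction.

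Other known RA targets varied. TGM2, a transglutaminase, rose from 1.26, 1.51, 1.30 and 1.99 to 4.06, 4.03, 4.39 and 5.05 (difference 1.26, adjusted p = 5.6e-05). BHLHE40, a transcriptional repressor, rose from a range of 8.78 to 12.9 with DMSO to one of 13.5 to 19.4 with RA (difference 0.85, adjusted p = 0.0061). RET, the GDNF-family receptor kinase, rose from a range of 4.60 to 8.10 with DMSO to one of 8.78 to 10.0 with RA (difference 0.51, adjusted p = 0.016), over a region of 104182 bases that also covers CSGALNACT2. In these 3 the groups did not overlap. A distal region 84020 bases from STRA8, a gene of meiotic entry, fell from 3.49, 4.71, 1.99 and 6.30 to 1.22, 1.55, 1.87 and 1.92 (difference -1.58, adjusted p = 0.0062), again without overlap. Distal regions rose near PBX3 (difference 1.87) and MEIS2 (1.76), homeobox factors that act with HOX proteins, while the MEIS2 start-site region did not pass the test (difference -0.34, adjusted p = 0.483). HOX genes, which RA is known to switch on in embryonic patterning, had 27 assigned regions. Of these 4 were above 1 (14.8%, against 12.3% of all assigned regions), and 1 of 25 tested rose by limma (4%, against 8.18%). That one was a region of 355 bases 28582 bases from HOXC4, at 1.00, 1.00, 3.08 and 2.77 with DMSO and 3.73, 3.94, 5.74 and 6.22 with RA (difference 1.55, adjusted p = 0.0054). The widest HOX region, over HOXC4 to HOXC10, lay at 7.86 to 11.8 with DMSO and 10.9 to 12.05 with RA (difference 0.17, adjusted p = 0.201).

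**Figure D2:**
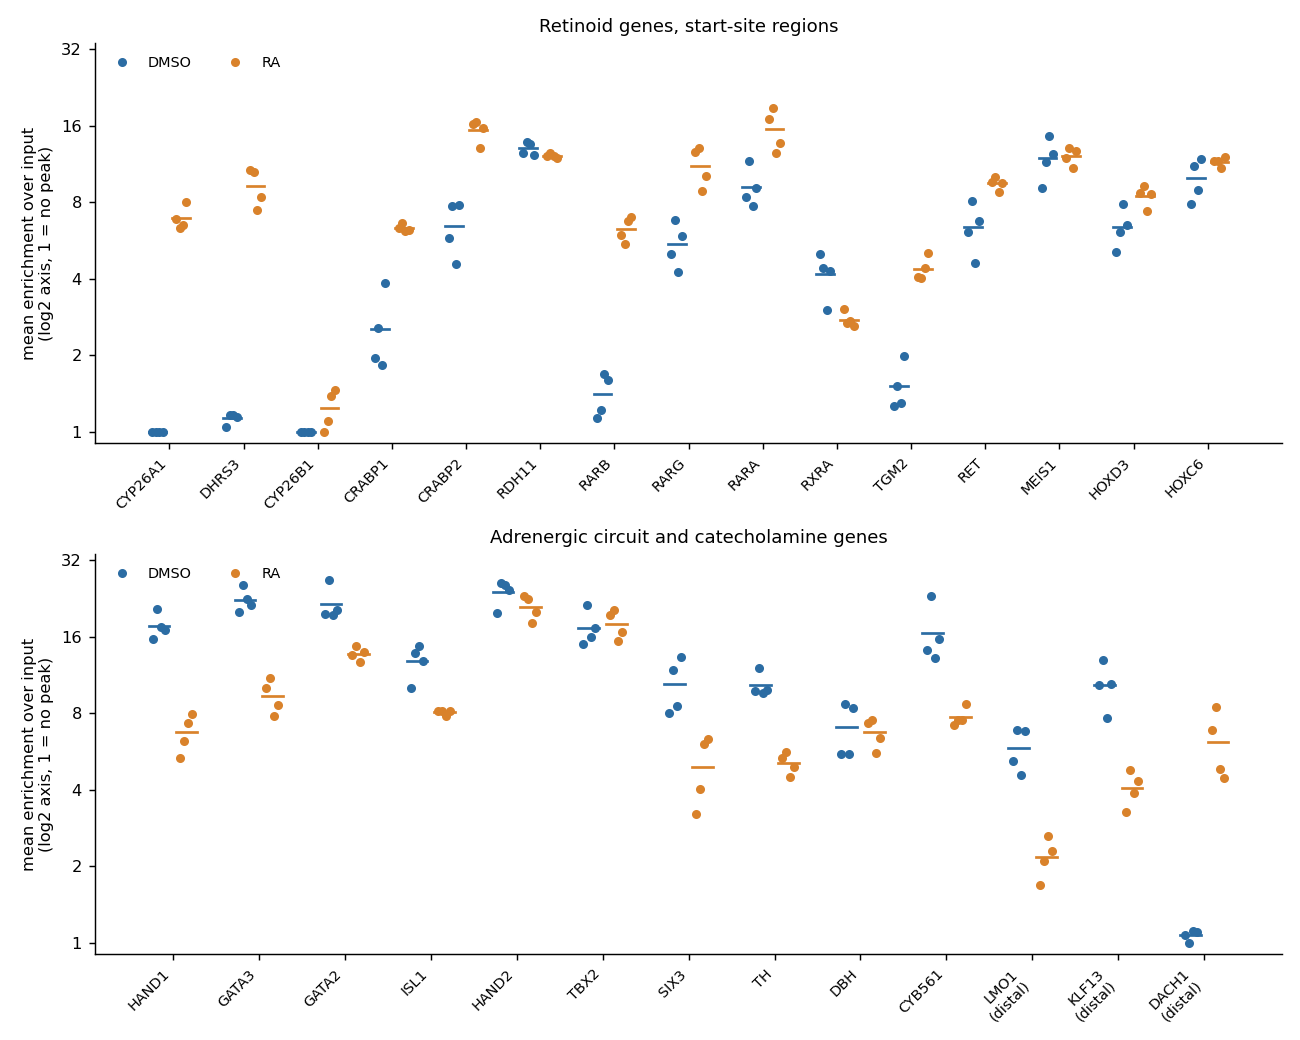
Mean enrichment over input per library (log2 axis, 1 where the library had no peak) for 4 DMSO (blue) and 4 RA (orange) libraries, with a bar at the group mean, at retinoid genes (above) and at adrenergic circuit and catecholamine genes (below). CYP26A1 and DHRS3 lie near 1 in every DMSO library and at 6.33 to 10.7 in every RA library, while HAND1 and GATA3 lie lower in every RA library than in any DMSO library.

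Sequence matches were then set against the differences. DR5 repeats were counted in the 1000 bases at the centre of each region, so that wide and narrow regions were searched alike. Of all distal regions 0.400% held a DR5 repeat, against 1.64% of the 2863 distal regions above a difference of 2, 0.909% of those above 1, 0.317% of those within 0.5 of no difference and 0.0997% of those below -1. No other spacing from 0 to 8 bases showed such an order. The repeat with 2 bases between the copies was at 2.42% of all distal regions and 2.2% of those above 2. The 289 distal regions with a DR5 repeat had a median difference of 0.56, and 38.8% of them were above 1 and 2.08% below -1, against 17.0% and 8.36% of distal regions without one. Within classes of GC content of the window, the share with DR5 among distal regions above 1 was 0.761% under 40% GC and 1.34% at 45 to 50% GC, against 0.192% and 0.306% of those within 0.5, but it was 0.373% above 1 and 0.413% within 0.5 at 55% GC and over. Start-site regions showed the same order on small numbers, since 11 of 46 with a DR5 repeat (23.9%) were above 1 against 5.52% of those without.

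**Figure D3:**
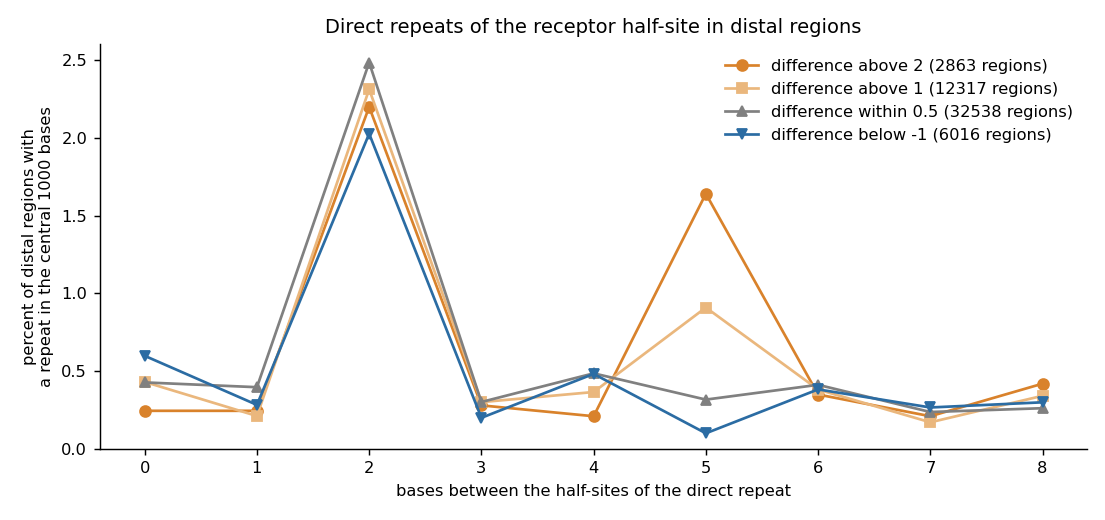
Percent of distal regions with a direct repeat of the receptor hexamer in their central 1000 bases, by the number of bases between the copies, for regions with a difference above 2, above 1, within 0.5 and below -1. The lines lie close together at other spacings and part at 5 bases, where the shares are 1.64%, 0.909%, 0.317% and 0.0997%.

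Most changed regions held no DR5 repeat in this window, and a repeat did not mark every region as higher. To show the range of matched sites, those of a start-site region (PIK3CG) and 2 distal regions (OTUD1 and SHCBP1L) that had large differences and rose by limma are given as above, followed by that of TH, whose region fell. A distal region of GABRB2 with a difference of 4.06 also held one but did not pass the test (adjusted p = 0.0848).
PIK3CG, minus strand: tctccaGGTTCAGAAAAAGGTCAcaggag
OTUD1, plus strand: gagtaaAGGTCAGGGAGAGTTCActgtca
SHCBP1L, minus strand: ccttttAGTTCACTCAAAGGTCAttttaa
TH, minus strand: gttctcAGGTCACCCCAGGGTCAccctca
The first lies at chr7:106499663-106499679 in an intron of PIK3CG, in a start-site region with a difference of 3.87. The OTUD1 site at chr10:23734764-23734780 lies between genes, in a region 4811 bases from the start site with a difference of 4.10 and peaks in every RA library and no DMSO library. The SHCBP1L site at chr1:182908813-182908829 is intronic, in a distal region with a difference of 3.99. The TH site at chr11:2193940-2193956 lies at -903 from the start site, in a region with a difference of -1.13. Matches are descriptions of the reference sequence, and binding was not measured.
TGANTCA, the AP-1 motif, also followed the difference when searched on both strands of the same windows: it was in 43.4% of distal regions above 1, 31.5% of those within 0.5 and 27.8% of those below -1 (33.8% of all distal regions). A higher share above 1 was not particular to this motif. The PHOX2 motif was in 5.44%, 2.86% and 2.73% of these classes of distal regions, in the same order. The motif of the GATA2 and GATA3 family was in 62.3%, 48.0% and 51.9%. An E-box motif went the other way, with 56.0%, 57.5% and 61.8%. The windows had a median GC content of 39.4%, 46.5% and 47.0% in these classes. The part of GC content in the shares of these motifs was not tested.

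The start-site regions with the largest upward difference, among those with a peak in 4 of 4 RA libraries and a rise by limma, belonged to GJA5, CYP26A1, DHRS3, FRMD4A, NREP, VPS13D, PIK3CG, DLG2, CD177 and SMG6. GJA5, which encodes the gap junction protein connexin 40, led with a difference of 5.26: its region (chr1:147241077-147246188) had no peak with DMSO and enrichments of 7.22, 9.14, 8.05 and 9.51 with RA. SMG6, an endonuclease of nonsense-mediated decay, lay at 1.23, 1.24, 1.19 and 1.30 with DMSO and 9.20, 9.27, 6.17 and 7.43 with RA (difference 3.56). DLG2, a postsynaptic scaffold protein, lay at 1.00, 1.00, 1.22 and 1.08 against 6.34, 5.71, 5.71 and 6.65 (difference 3.74). PIK3CG, the catalytic subunit of PI3-kinase γ, lay at 1.00 to 1.05 against 5.58 to 8.76. NREP, first described in regenerating neurons, rose at its start site from no peak to 3.48, 4.19, 2.18 and 2.73 (difference 3.99). At all 10 the DMSO libraries lay at 1.30 or below. The VPS13D region lies in an intron 2793 bases from the nearest start site, beside DHRS3 on chromosome 1.

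The largest downward differences at start sites, under the same rule, were at OR8B8, FHL2, KLK3, DLK1, RHOXF1P3, CIAPIN1, FLCN, FLVCR2, GRIK3 and PRLHR, from -2.90 to -2.29. DLK1 encodes a membrane protein related to Notch ligands and is expressed in sympathoadrenal cells. Its region of 33491 bases (chr14:101174107-101207597) fell from 5.41, 8.53, 4.14 and 7.85 to 1.37, 1.61, 1.99 and 1.62 (difference -2.47, effect -1.87 ± 0.23, adjusted p = 2.1e-05). FHL2, a LIM-domain cofactor, fell from 4.19, 7.06, 8.21 and 6.75 to 1.42, 1.39, 1.65 and 1.66 (difference -2.59). GRIK3, a kainate receptor subunit, fell from 3.62, 4.46, 7.22 and 6.001 to 1.00, 1.00, 1.97 and 1.91 (difference -2.30), and PRLHR, a neuropeptide receptor, from a range of 4.45 to 9.66 with DMSO to one of 1.53 to 1.89 with RA (difference -2.29). OR8B8, an olfactory receptor gene, owed its DMSO mean to replicate 3, with values of 2.06, 1.89, 5.05 and 1.85. The 10 were chosen by the test itself, and only the RHOXF1P3 pseudogene among them had groups that overlapped, with 1.48, 2.50, 6.07 and 3.17 against 1.00, 1.00, 1.64 and 1.00. These 10 differences were smaller in size than the 10 upward ones, and the OR8B8 and CIAPIN1 regions were under 1000 bases wide.

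Distal regions within 100 kb of a start site followed the same rule. The 10 largest upward differences lay near PAWR, SLC5A7, ZNF726, AHR, TEX101, POU2AF3, HHIP, NREP, SMPX and PDK4, from 5.28 to 4.49, and none of these 10 had a peak in any DMSO library. SLC5A7 encodes the high-affinity choline transporter, and the region nearest to it (chr2:108688768-108691712) lay between genes, 85788 bases from its start site, with RA enrichments of 3.18, 4.24, 3.22 and 2.86. AHR encodes the aryl hydrocarbon receptor, and the region in its intron (chr7:17197689-17201011), which holds the DR5 repeat printed above, had RA enrichments of 4.48, 3.79, 1.69 and 3.25. The PDK4 region was less even, with 4.19, 2.70, 1.44 and 1.24, and its adjusted p was 0.0454. The 10 largest downward differences, from -3.56 to -2.86, lay near IGSF21, LINGO1, CSPG4, TMEM18, ZNF275, SPOPL, KCND3, IL12B, ZC3H12A and PRLHR. IGSF21, a synaptic adhesion protein, fell in an intron (chr1:18456979-18461848) from 5.48, 6.96, 8.18 and 5.18 to 1.00, 1.00, 1.00 and 1.21. CSPG4, the proteoglycan NG2, fell in an intron from 6.53, 10.4, 6.51 and 7.98 to no peak in any RA library.

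Farther than 100 kb from any start site, the largest difference of all regions was 5.94, at chr4:5525653-5532502, 177784 bases away and over the long non-coding RNA LINC01587. It had no peak with DMSO and enrichments of 11.4, 10.1, 5.74 and 7.63 with RA (effect 3.13 ± 0.23, adjusted p = 1.5e-07). A region of 15331 bases at chr2:240809938-240825268, between genes, likewise had no peak with DMSO and 8.84, 9.98, 6.91 and 7.61 with RA (difference 4.52). Another, at chr2:108739149-108743113, lies close to the SLC5A7 region above (difference 5.42). The lowest of this class included a region in an intron of TENM2 on chromosome 5, which fell from 4.51, 6.12, 5.23 and 4.88 to no peak in any RA library (difference -2.84).

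The ADRN circuit changed in part. HAND1, a basic helix-loop-helix factor, fell from 15.8, 20.5, 17.4 and 17.1 to 5.32, 6.24, 7.35 and 7.97 (difference -1.68, adjusted p = 3.4e-05). GATA3, a zinc-finger factor of the sympathetic lineage, fell from 20.1, 25.6, 22.5 and 21.4 to 10.1, 10.99, 7.82 and 8.63 (difference -1.35, adjusted p = 4.6e-05). In both genes the groups were far apart, and a peak remained in all 4 RA libraries. SIX3 fell (difference -1.19, adjusted p = 0.0023), GATA2 by less (difference -0.80, adjusted p = 0.010) and ISL1 by less again (difference -0.68, adjusted p = 0.020).

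Other members of the circuit did not pass the test. HAND2 lay at 19.9, 26.0, 25.5 and 24.4 with DMSO and 23.2, 22.5, 18.1 and 19.96 with RA (difference -0.25, adjusted p = 0.515). TBX2 lay at 15.04 to 21.3 and 15.4 to 20.3 (difference -0.11, adjusted p = 0.632). In both, the groups overlapped. MYCN, amplified in this line, had no region within 3 kb of its start site, and its nearest assigned region, 24967 bases away, did not pass (difference -1.22, adjusted p = 0.107). Distal regions fell near LMO1, a transcriptional cofactor (from a range of 4.58 to 6.84 with DMSO to one of 1.69 to 2.62 with RA, difference -1.76, adjusted p = 0.00017), and near KLF13 (from a range of 7.69 to 13.0 with DMSO to one of 3.26 to 4.80 with RA, difference -1.66, adjusted p = 0.00014). DACH1 went the other way, with a distal region in the gene (chr13:72204603-72213910) at 1.07, 1.00, 1.11 and 1.10 with DMSO and 6.85, 8.49, 4.81 and 4.43 with RA (difference 3.38, adjusted p = 2.3e-06). Of the 228 regions assigned to 19 circuit genes, 39 (17.1%) had a difference below -1 and 31 (13.6%) above 1. Over all assigned regions these shares were 6.37% and 12.3%, and 23 of the 31 were those of DACH1. By limma 25 of 206 tested circuit regions fell (12.1%) and 13 rose (6.31%), against 4.97% and 8.18% of all assigned regions tested.

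Of 61 tested regions of catecholamine genes, 7 fell (11.5%) and 1 rose (1.64%), against 4.97% and 8.18% of all assigned regions tested. TH, the rate-limiting enzyme of catecholamine synthesis, fell from 9.77, 12.1, 9.62 and 9.92 to 5.33, 5.63, 4.50 and 4.93 (difference -1.13, adjusted p = 0.00078). CYB561, the electron carrier of secretory vesicles, fell from a range of 13.2 to 23.2 with DMSO to one of 7.21 to 8.74 with RA (difference -1.30, adjusted p = 0.00052). The groups did not overlap at either. DBH, which makes noradrenaline, lay at 5.54, 8.68, 5.54 and 8.39 with DMSO and 7.36, 7.54, 5.60 and 6.41 with RA and did not pass (difference -0.27, adjusted p = 0.961).

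Gene lists were compared with all 72309 regions assigned to a gene within 100 kb, of which 12.3% were above a difference of 1 and 6.37% below -1. Retinoid metabolism and binding genes had 42 of 86 regions above 1 and 3 below -1, with a median of 0.93. Of the 42, 12 belonged to DHRS3 and 12 to ALDH1A2. By limma 23 of 75 tested regions of the list rose and 1 fell, against 8.18% and 4.97% of all assigned regions tested. RA target genes had 40 of 135 above and 2 below (median 0.61), and retinoid receptors and cofactors 23 of 105 above and 6 below (median 0.19), of which 11 of the 23 belonged to the coactivator gene NCOA3 and 9 to RARB. Catecholamine genes had 2 of 64 above and 7 below, and potassium channels 15 of 239 above and 43 below (median -0.41), of which 20 belonged to KCND3 and 8 to KCNQ1. KCNQ1, KCND3, KCNT1 and KCNK3 fell at their start sites, with differences of -2.23, -2.07, -1.20 and -1.19. Cholinergic genes had 20 of 102 above and 1 below, and 15 of the 20 belonged to CHRM3, a muscarinic receptor gene with 45 regions. By limma 12 of 88 tested cholinergic regions rose (13.6%) and 1 fell (1.14%). Among the nicotinic receptor genes, 2 of 2 regions of CHRNA3, 3 of 10 of CHRNB4 and 1 of 4 of CHRNA5 rose. The receptor genes CHRNA7 and CHRNB2 had a difference of -0.57 each at the start site and did not pass the test there.

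Postsynaptic genes had 93 of 262 regions above 1 and 15 below, but 83 of the 93 belonged to DLG2, which has 95 regions. GRIA4, a glutamate receptor subunit, fell at its start site from a range of 9.87 to 11.8 with DMSO to one of 4.02 to 6.58 with RA (difference -0.99, adjusted p = 0.0024). Axon and neurite genes had 56 of 489 above and 31 below, near the shares of all regions, with a median of 0.01 that was -0.14 after centring by GC content, when 45 were above and 69 below. Within that list DPYSL3, a collapsin response mediator, rose from 1.64, 1.93, 2.76 and 3.87 to 10.6, 8.69, 8.67 and 11.01 (difference 2.03), NRP1, a semaphorin receptor, rose (difference 1.92), and NEFH, the heavy neurofilament, fell from a range of 5.65 to 8.62 with DMSO to one of 2.74 to 3.89 with RA (difference -1.54). Among Wnt genes the secreted inhibitors DKK2 and DKK1 rose (differences 3.48 and 1.25). SFRP1, another secreted inhibitor, had 5 of 21 regions below -1 and 1 above (median -0.62), and its start-site region did not pass (difference -1.28, adjusted p = 0.200). The ligand gene WNT3 fell (difference -1.16, adjusted p = 0.034). The list had 36 of 231 regions above 1, 21 of them at DKK2, and 24 below, with 27 that rose and 18 that fell by limma, which were 22 and 29 with quantile normalisation. The Notch ligand gene DLL3 fell (difference -1.68). Cell cycle genes had 12 of 114 above and 5 below, and 6 rose and 6 fell by limma, which were 5 and 10 with quantile normalisation. The 37 start-site regions of this list had a median of -0.48, with 1 above 1 and 1 below -1. By limma 0 of these rose and 4 fell, against 5.25% and 4.19% of all start-site regions tested. E2F2 and AURKB fell at the start site (differences -1.05 and -0.74). MKI67, the proliferation marker, went the other way with 6 of 10 regions above 1, and E2F7 and CDK1 had 2 of 3 and 2 of 4. These 3 genes were named after their values were seen. Regulators of G1 formed a separate list, with 2 of 57 regions above 1 and 1 below, and in it the cyclin-dependent kinase inhibitor gene CDKN1A rose from 2.50, 2.60, 3.61 and 5.98 to 5.86, 5.68, 6.14 and 5.59, with DMSO replicate 4 above the RA libraries other than replicate 3 (difference 0.89, adjusted p = 0.021). Mesenchymal genes had 16 of 131 above and 11 below, near the shares of all regions. By limma 12 of 117 tested mesenchymal regions rose (10.3%) and 7 fell (5.98%), against 8.18% and 4.97% of all assigned regions tested. The rises were at 8 and the falls at 4 of 21 genes, against 17.1% and 11.9% of all genes with a region. With quantile normalisation 10 mesenchymal regions rose and 9 fell. Of the 28 start-site regions in this list 5 rose and 0 fell, against 5.25% and 4.19% of all start-site regions tested. Those that rose included WWTR1, IRF1 and FN1 (differences 1.44, 1.75 and 0.55). The housekeeping list had 8 of 76 above and 0 below.

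**Figure D4:**
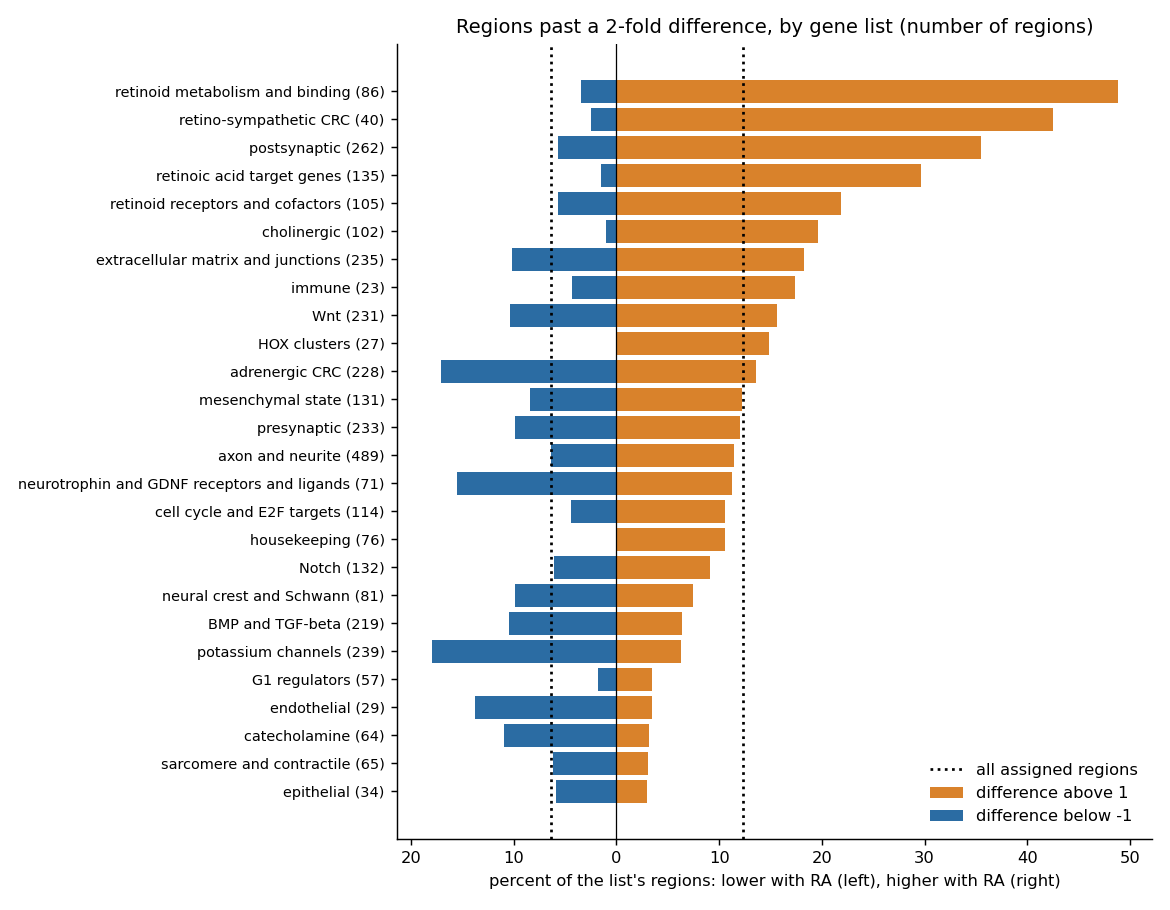
Percent of each list's assigned regions with a difference above 1 (orange, to the right) or below -1 (blue, to the left), with the number of regions in brackets and dotted lines at 12.3% and 6.37%, the shares over all assigned regions. Retinoid metabolism, the retino-sympathetic CRC, postsynaptic and RA target lists reach farthest to the right, and potassium channel and adrenergic CRC lists farthest to the left.

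Differences of neighbouring regions were related, and a minority of changed regions lay in long runs. Along the chromosomes, the differences of adjacent regions correlated across regions at r = 0.763 for gaps under 1 kb (12855 pairs), 0.623 at 1 to 10 kb, 0.419 at 10 to 50 kb and 0.209 beyond that, where neighbours share their libraries and local base composition. There were 417 unbroken runs of at least 5 regions above 1, holding 3456 of the 13425 such regions, and 147 such runs below -1, holding 1026 of 6671. The longest run above 1 had 44 regions over 279.9 kb with DLG2 as the most frequent nearest gene. Others had 36 regions over 564.6 kb at DUSP6, a MAP kinase phosphatase, 31 over 314.9 kb at VPS13D, and 21 over 610.4 kb reaching RARB. A run of 23 regions at CD177 spanned 1007 kb with a median difference of 3.35. Downward, 22 regions over 378.9 kb lay at PTPRU (median -1.83), 20 at GLI2, a Hedgehog effector (median -1.47), 14 and 11 at KCND3, and 13 over 150.3 kb at HAND1 (median -1.65).

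Around single genes the patterns differed. Within 400 kb of the start site, 33 of 37 regions at DHRS3, 27 of 40 at CYP26A1 and 23 of 33 at RARB had a difference above 1, and none of these 3 windows had a region below -1. At RARB the differences upstream of the start-site region lay between 1.73 and 3.37, and those on its other side ranged from -0.49 to 2.04 with no steady order along the gene. At HAND1, 15 of 44 regions were below -1 and 1 was above 1. By gene, PARVA, an actin-binding adaptor of focal adhesions, had 23 of 26 regions below -1, and ELMO1, an activator of Rac signalling, had 23 of 49. AUTS2 and MAST4 had 30 of 83 and 33 of 64 above 1.

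**Figure D5:**
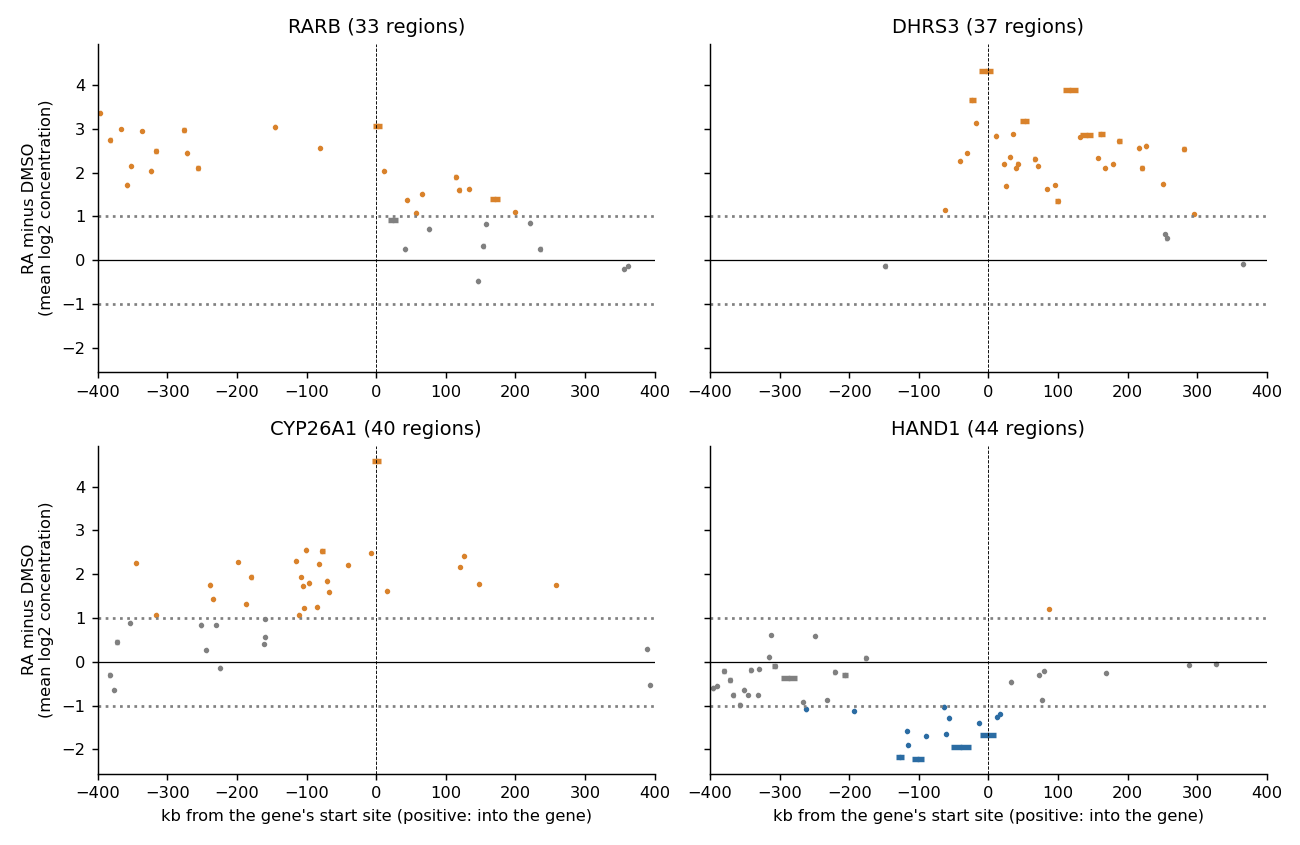
Difference RA minus DMSO of each region within 400 kb of the start sites of RARB, DHRS3, CYP26A1 and HAND1, against distance in kb (positive into the gene), with bars as wide as the region and dotted lines at 1 and -1. Orange regions are above 1 (23, 33, 27 and 1 regions) and blue regions below -1 (none in the first 3 windows and 15 at HAND1).

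Start-site and distal changes of a gene were related. Over 9737 genes with both kinds of region, the start-site difference and the median distal difference correlated across genes at Pearson r = 0.477 and Spearman rho = 0.446. Genes are not independent replicates, and neighbouring regions share their surroundings. Of 356 genes with a start-site difference above 1, 333 had a distal median above 0, and of 237 genes with one below -1, 203 had a distal median below 0.

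Occupancy showed how far the changes were gains of new peaks. Peaks in all RA libraries and no DMSO library were found at 2694 of all regions (2.92%), and the reverse at 833 (0.904%). The gains comprised 2533 distal regions (3.51%) and 161 start-site regions (0.809%). The losses comprised 781 distal (1.08%) and 52 start-site regions (0.261%). The gained distal regions had a median difference of 1.85, a median width of 2176 bases and a median GC content of 39.7%, and 934 of them lay beyond 100 kb. The lost distal regions had a median of -1.39 and a GC content of 43.7%. Without DMSO replicate 3, the library with the fewest peaks, lost regions numbered 1423 distal and 106 start-site, both above 1.5 times the count with all libraries. Among distal regions with a difference above 1, peaks covered 12.3 ± 1.90% of bases in DMSO libraries and 55.8 ± 5.56% in RA libraries (SD, n = 4). Among those below -1, they covered 66.5 ± 9.60% and 24.0 ± 3.15%. These sets were chosen by the difference in the same libraries, so the direction of their cover was given by the choice. Over all distal regions, peaks covered 42.4 ± 8.04% of bases with DMSO and 43.9 ± 2.45% with RA (SD, n = 4). Peaks in all 8 libraries were found at 67.4% of start-site and 24.0% of distal regions, and among these always-marked regions 240 start-site and 1236 distal regions were above 1, and 358 and 1458 below -1.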

How the data were processed

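H3K27ac ChIP-seq of 4 RA and 4 DMSO samples was analysed, grouped by their titles, and the tests measure the spread between these samples. Per the submitters' processing notes, the authors used fastp 0.12.4, Bowtie2 2.4.4, hg19, MACS2 2.2.7.1 for broad peaks of each library and DiffBind 3.4 for the region table. Deposited peaks hold an enrichment ratio to input and a −log10 q, both from the authors' peak calling. The deposited table carries the authors' mean log2 concentration of each group. It also holds the authors' fold changes, p-values and FDR, which were not used. Read depth, which affects how many peaks are called, was not given in the sources used here.

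Table starts were converted to 1-based coordinates. Regions were assigned with GENCODE v44lift37, on GRCh37, to the nearest protein-coding start site within 100 kb. Enrichment per library was averaged over each region and shifted to one median over regions with peaks in all 8 libraries. Its log2 was fitted with limma 3.58.1 (R 4.3.3, trend, robust, two-sided, adjusted p under 0.05 over 77894 regions), tested on simulated data. Library measures used exact permutation tests over 70 arrangements. Named genes were those with the 10 largest and 10 smallest differences in each class, the 5 genes with the most changed regions in each direction, up to 4 members with the largest start-site difference in each list, and markers. Members and lists were chosen with earlier results of these data known. Python 3.11.15, numpy 2.4.6, pandas 2.3.3 and matplotlib 3.10.9 were used. Alternatives covered thresholds, scaling, filters, peak q, start-site distance, the replicate block and left-out libraries. Some genes are not reported here.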

Additional observations from a re-analysis of the deposited data

Results flagged for a closer look

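Of 210 groups of 4 libraries examined, 10 (4.76%) had a library whose gap to the nearest other library was wide for the group's range by Dixon's test at the 95% level. Chance flags about 1 in 20 groups, so this number is close to what chance gives. DMSO replicate 3 had 17961 start-site peaks, below the other DMSO libraries, and it also stood highest at OR8B8 (mean enrichment 5.05), at the distal region of ZC3H12A (4.75) and at the distal region of PBX3 (2.00). DMSO replicate 2 stood highest at the start-site regions of TH (12.1), KCNQ1 (9.70) and GATA2 (26.7). DMSO replicate 1 stood lowest at DHRS3 (1.04). Among RA libraries, replicate 2 stood highest at the distal region of NREP (4.35) and replicate 3 lowest at ISL1 (7.82).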

How the results depend on the processing

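Over 129 named regions, 113 were called, and 2083 alternative values of these kept their direction, 1980 of them past the threshold and 103 no longer past it. The settings that lost the most calls were replicates 3 and 4 only (15) and peaks of −log10 q of at least 3 (14). Counts by difference (higher and lower) were 2767 and 3115 at start sites and 22950 and 16711 distal beyond 0.5, and 169 and 36, and 2863 and 416, beyond 2. With the higher concentration at or above the median, 611 start-site regions were higher, and 5886 distal regions were higher and 3313 lower. Start-site regions within 1 kb gave 711 higher, and those overlapping a start site 588 higher and 399 lower. The groups share replicate numbers, but deviations of same-numbered libraries correlated at 0.222, 0.192, 0.0900 and 0.252, DMSO replicates 1 and 3 correlated best with another number, and no label says that a number marks a shared batch, so pairing was not assumed. With the replicate block, start-site calls were 1761 and 1491, no named call was lost, and catecholamine regions gave 6 rises and 8 falls against 1 and 7. Alternatives chosen after seeing the data gave 1670 and 1358 at start sites with the set of replicates as a term, and 2306 and 1538 at start sites and 11828 and 8037 distal with replicates 1 and 2 only. Peaks of −log10 q of at least 3 gave 3003 and 2106 distal calls, and a restriction to regions peaked in all 8 libraries gave 2356 and 2152, over fewer regions tested. Leaving out 1 library gave 706 to 1275 start-site rises, 454 to 895 falls (454 without RA replicate 1 and 493 without RA replicate 2), and 4384 to 5961 distal rises and 2244 to 3739 falls. Gained and lost regions numbered 259 and 127 at start sites and 1253 lost distal when peaks had to cover at least 50% of the region, 92 gained at start sites and 861 distal at the stricter q, and 338 and 145, and 4833 and 2131, with 3 of 4 libraries. They numbered 85 and 29 within 1 kb and 70 and 18 at overlapped start sites. Leaving out 1 library gave 174 to 223 and 57 to 106 at start sites, and 2790 to 3417 and 921 to 1423 distal. The difference in start-site peaks ranged from 1008 to 2100 (two-sided exact permutation p = 0.0286 without RA replicate 4, the smallest possible), and that in the median enrichment of distal peaks from -0.0101, without DMSO replicate 4, to 0.0894. Regions not called that changed sign were MEIS1 (-0.15, replicates 3 and 4), HAND2 (0.041, replicates 1 and 2), TBX2 (-0.0102, replicates 3 and 4), DBH (-0.0417 without normalisation, -0.144 with replicates 3 and 4, and -0.0543 to 0.087 with 1 library left out) and RDH11 (0.00914 at the stricter q, 0.0588 with quantile normalisation, and -0.121 to 0.0212 with 1 library left out). The cause of these changes was not tested. The number of libraries, unknown depth and the assigned value where no peak lies limit the precision of effects at regions with low enrichment.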
